A study of Mus musculus with 12 samples.

Results

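The genes described here are the clustered histone genes of the mouse genome, taken as every gene of the count files whose GENCODE M21 symbol begins with Hist1h, Hist2h, Hist3h or Hist4h, with genes named as pseudogenes left out. Of 69 such annotated genes, 67 were among the 47224 genes of the count files with a GENCODE M21 symbol and 2 were not analysed here (Hist1h2bm and Hist1h2bh). By class they were 6 linker histone H1 genes, 20 H2A, 16 H2B, 12 H3 and 13 H4 genes. By cluster, 54 belonged to Hist1 on chromosome 13, 10 to Hist2 on chromosome 3, 2 to Hist3 on chromosome 11 and 1 to Hist4 on chromosome 6. Without the processed pseudogene Hist1h2al, which carries a cluster name but lies far outside it at chr13:51202727-51203065, the Hist1 genes spanned 2219.1 kb of chromosome 13 (mm10). Hist1h2aj, also counted among the H2A genes, is annotated as a pseudogene by type as well.

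RNA was measured in liver tissue of C57BL/6 mice, 4 per group. Naive_vehicle mice were healthy animals given vehicle. STAM_vehicle mice carried the STAM model of non-alcoholic steatohepatitis, made by streptozotocin on day 2 of life and a high-fat diet from week 4, and were given vehicle. STAM_treated mice had the same model and received I-BET151, an inhibitor of the bromodomain and extra-terminal (BET) proteins, by mouth once a day at 10 mg/kg from week 6 to week 9. All animals were males. The compound was suspended in hydroxypropyl methylcellulose with a detergent and the vehicle was methylcellulose, so the suspending agent and the compound cannot be told apart, and neither can streptozotocin and diet in the model.

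Nucleosomes are built from the 4 core histones H2A, H2B, H3 and H4, and H1 binds the linker DNA between them. Most clustered histone genes are transcribed in S phase, when new DNA must be packaged, and hold no introns. Their mRNA ends in a short stem-loop bound by the stem-loop binding protein Slbp instead of a poly(A) tail, although some of these genes also give polyadenylated transcripts, which are seen mainly in differentiated cells. The libraries were selected for poly(A) RNA, so the values below describe the RNA of these genes that such libraries hold, not all of it.

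The stem-loop is shown for the members on which the results turn, because it is the part of the transcript that marks a histone mRNA normally made without a poly(A) tail. It was sought in the first 200 bases after the stop codon of the annotated transcripts, as 6 perfect base pairs, starting with GG, around a loop of 4 bases that starts with TTT. Capitals mark the paired bases.
Hist1h4h, Hist1h4m, Hist1h4d and Hist1h4c: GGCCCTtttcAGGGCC
Hist1h4j: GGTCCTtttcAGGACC
Hist1h4i and Hist2h4: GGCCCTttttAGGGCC
Hist1h1c, Hist1h1d, Hist1h2be, Hist1h2bg, Hist2h3c2 and Hist3h2a: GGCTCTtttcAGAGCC
Of 65 members with a coding transcript, 50 had an annotated end long enough to hold it and 42 of these did, 22 to 59 bases after the stop codon. Among 20806 other protein-coding genes with room, 8 held it, a share of 0.0385%. Its form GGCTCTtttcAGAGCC stood in 24 members and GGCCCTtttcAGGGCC in 7. Hist1h2bc and Hist2h2be, both H2B genes with long annotated ends, and the H4 gene Hist1h4a did not hold it in the stretch searched, and the annotated transcript of Hist1h4k stopped at its stop codon, so that nothing could be said of its stem-loop.

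Promoters are shown for the 4 tested H4 genes that edgeR or DESeq2 called after I-BET151, and for Hist1h4i, an H4 gene of the same cluster that was not called. They come from RefSeq on GRCm38.p6 and run from 250 bases before to 50 bases after the annotated start, 5′ to 3′ on the strand of the gene. Capitals mark the word TATAAA, or CCAAT or ATTTGCAT (the octamer), on either strand, whether or not it overlaps another word.
Hist1h4h, chr13:23530794-23531093, plus strand: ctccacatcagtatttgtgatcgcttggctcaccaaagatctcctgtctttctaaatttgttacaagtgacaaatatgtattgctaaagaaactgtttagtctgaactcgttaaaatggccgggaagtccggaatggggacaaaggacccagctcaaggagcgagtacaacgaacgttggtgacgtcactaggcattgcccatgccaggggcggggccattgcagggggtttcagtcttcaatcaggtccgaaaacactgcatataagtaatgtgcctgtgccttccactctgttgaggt
Hist1h4k, chr13:21750504-21750803, minus strand: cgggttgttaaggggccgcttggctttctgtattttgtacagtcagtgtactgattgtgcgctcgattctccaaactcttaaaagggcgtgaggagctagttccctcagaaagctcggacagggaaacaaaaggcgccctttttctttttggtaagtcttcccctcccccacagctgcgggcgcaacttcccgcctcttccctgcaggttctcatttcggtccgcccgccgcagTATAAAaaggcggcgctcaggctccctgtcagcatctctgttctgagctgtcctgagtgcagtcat
Hist1h4j, chr13:21734784-21735083, plus strand: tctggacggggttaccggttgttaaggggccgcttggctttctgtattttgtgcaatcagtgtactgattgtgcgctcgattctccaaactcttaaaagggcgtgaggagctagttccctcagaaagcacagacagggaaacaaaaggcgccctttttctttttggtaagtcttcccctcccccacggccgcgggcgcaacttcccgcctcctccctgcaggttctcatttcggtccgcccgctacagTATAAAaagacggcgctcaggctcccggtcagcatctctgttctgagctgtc
Hist1h4m, chr13:21811496-21811795, plus strand: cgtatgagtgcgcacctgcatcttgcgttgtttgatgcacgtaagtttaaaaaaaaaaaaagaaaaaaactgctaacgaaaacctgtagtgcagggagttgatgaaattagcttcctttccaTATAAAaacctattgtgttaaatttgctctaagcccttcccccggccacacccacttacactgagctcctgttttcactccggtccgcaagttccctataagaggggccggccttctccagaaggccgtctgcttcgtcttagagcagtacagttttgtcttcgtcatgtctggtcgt
Hist1h4i, chr13:22041313-22041612, minus strand: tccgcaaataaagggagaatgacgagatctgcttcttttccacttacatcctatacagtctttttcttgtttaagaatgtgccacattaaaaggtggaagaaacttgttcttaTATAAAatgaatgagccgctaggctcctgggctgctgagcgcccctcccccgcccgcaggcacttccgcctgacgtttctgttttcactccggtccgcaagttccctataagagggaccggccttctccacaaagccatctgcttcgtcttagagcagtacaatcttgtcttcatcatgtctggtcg
RefSeq promoters were matched for 60 members. CCAAT stood in all matched promoters of the H1, H2A, H2B and H3 classes (6, 18, 14 and 10 promoters) and in 3 of 12 H4 promoters, against 37.4% of the 32851 promoters of the table. TATAAA stood in 8 of 12 H4 promoters and in 58.3% of all 60, against 13.6% of the table. The octamer stood in 7 H2A and 5 H2B promoters and in no promoter of the other 3 classes, against 1.74% of the table. The Hist1h4h promoter held none of the 3 words. Laid against each other without gaps, the promoters of Hist1h4j and Hist1h4k agreed in 95.8% of 286 bases and those of Hist1h4m and Hist1h4n in 99.7% of 299 bases, against a median of 33.3% over the 66 pairs of H4 promoters.

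Depth was 34711229 to 53365596 counts per mouse. Counts are given as deposited, and levels as CPM, the count relative to the size of its library after scaling by the trimmed mean of M-values (TMM). A filter on low counts left 16823 genes for edgeR's quasi-likelihood test, with p-values adjusted after Benjamini and Hochberg over all of them. A gene was called where this adjusted p reached 0.1 or less between I-BET151 and STAM vehicle, or 0.05 or less between either STAM group and naive mice. The threshold for treated STAM against naive mice was set here, and the others follow the study. STAM_treated mouse 3 stood apart from the other libraries. The TMM scaling factor of this mouse was 1.61, whereas the other 11 had 0.77 to 1.11, its 6 hepatocyte markers summed to 22652 CPM against 75013 to 91501 CPM in the other treated mice, and 6 RNAs retained in the nucleus summed to 4806 CPM against 1144 to 1552 CPM. Values that rest on this mouse are therefore given with and without it. Hepatocyte markers were abundant in all 12 livers. Bulk tissue does not tell a smaller share of cells of one type from less RNA per cell.

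In livers of all 3 groups the H2B and H1 classes made up most of the signal of the clustered histone genes, and 1 gene of each of these classes carried most of its sum. H2B held 69.4%, 62.0% and 55.2% and H1 27%, 31.6% and 29.8% in naive, STAM vehicle and STAM I-BET151 livers. Over all 12 mice, 57 of the 67 members had at least 1 count, 22 were tested and 10 had no count. Per kb of exon the order of the class leaders was Hist1h2bc (69.7 CPM per kb, mean of 12 mice), Hist1h1c (28.8), Hist1h4h (14.1), the H3 gene Hist2h3c2 (2.22) and the H2A gene Hist3h2a (0.504). Hist1h4h owed its place to the treated mice, with 1.31 CPM per kb in naive, 3.48 in STAM vehicle and 37.5 in STAM I-BET151 livers. Hist1h2bc held 84.4% of the H2B signal and Hist1h1c 98.9% of the H1 signal in STAM vehicle livers.

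**Figure D1:**
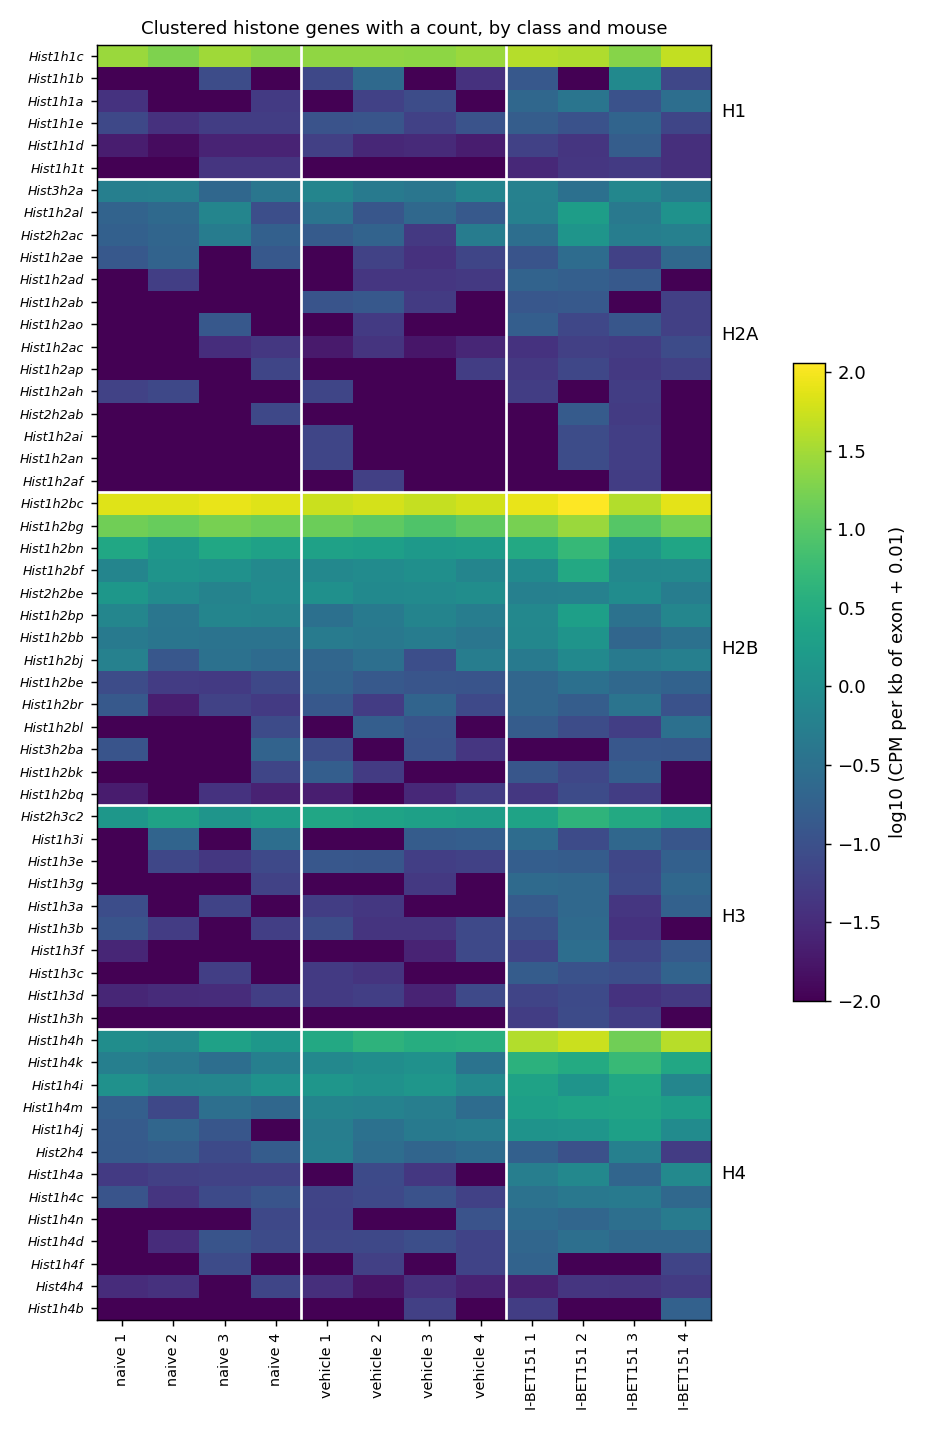
Level of each of the 57 clustered histone genes with a count, as log10 of CPM per kb of exon plus 0.01 (colour), by class and by mouse, with 4 mice per group. The top rows of the H1, H2B and H3 classes are bright in every mouse, most other rows are dark, and several H4 rows brighten in the 4 I-BET151 mice.

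The classes were counted to unequal depth. In the H2B class 10 of 16 members were tested and in H4 7 of 13, but only 2 of 6 in H1, 2 of 20 in H2A and 1 of 12 in H3. By cluster, 17 of 54 Hist1, 4 of 10 Hist2, 1 of 2 Hist3 and 0 of 1 Hist4 members were tested. Shared sequence and overlap with other genes bear on these counts. Only uniquely mapped reads were kept, and of all 101-base windows of their transcripts (the read length), 25 members had under 50% that occur at no other annotated locus, while 9 members had all. Hist1h4d was free of such sharing (100%), Hist1h4j had 81.2% of its windows to itself, Hist1h4h 61.6%, Hist1h4k 35.8% and Hist1h4m 11.9%. The values of Hist1h4k and Hist1h4m are therefore uncertain as values of single genes. All 20 H2A members shared exon bases with a gene annotated on the opposite strand, as did 3 other members. Of the 22 genes lying opposite to H2A members 19 had 0 counts in all 12 mice. The other 3 held 1283 counts over the 12 mice, most of them in Gm20632 (835) and Gm20633 (444). All H2A members together had 205 counts in naive, 284 in STAM vehicle and 425 in STAM I-BET151 mice. Whether strand was used in counting is not given in the sources used here, and the part of sharing and overlap in the low H2A and H3 counts was not tested.

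**Figure D2:**
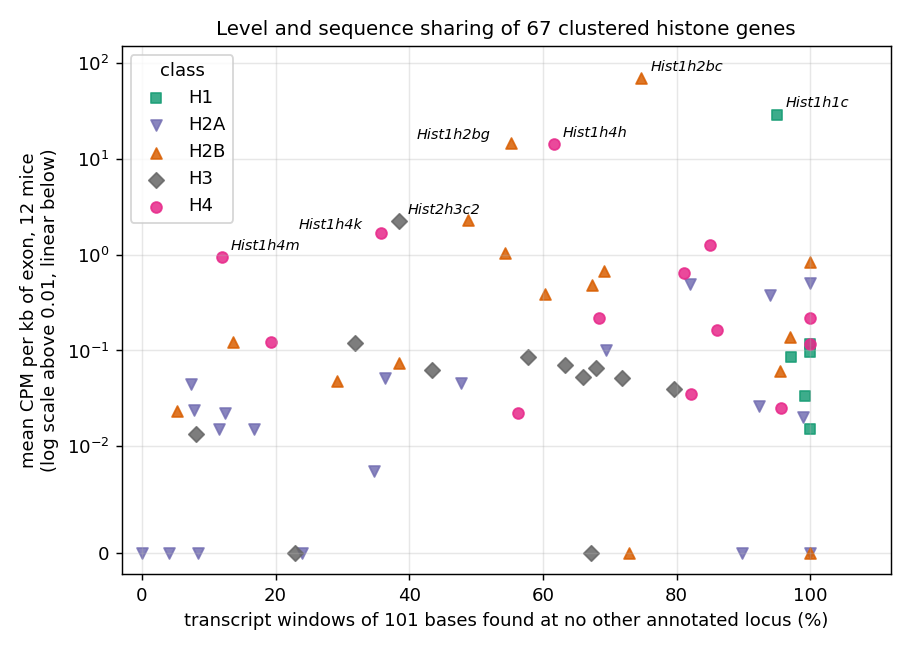
Mean level of the 67 members over 12 mice (CPM per kb of exon, log scale above 0.01) against the percent of 101-base transcript windows found at no other annotated locus, by class. The 10 members without any count are spread along the horizontal axis, and Hist1h4m and Hist1h4k combine a measurable level with few windows of their own.

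The first question was what treatment with the BET inhibitor did to these genes in the diseased liver. After I-BET151, 3 H4 genes were higher than in STAM vehicle livers and no member was lower. The 3 were Hist1h4h, Hist1h4k and Hist1h4m, all in the Hist1 cluster and all coding for the core histone H4. Of the 16823 genes tested 16 were called higher, a share of 0.0951%. Called lower were 43, so that no member lower is near the background. Of the 22 members tested, 19 had a fold change above 0 on the log2 scale, with a median of 0.76 against 0.02 over all genes. Some members, among them Hist1h4k and Hist1h4m, passed the filter on low counts only with their treated mice, so this median is not independent of the filter.

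Hist1h4h (chr13:23531050-23531519, plus strand, 1 exon; H4c8 in RefSeq) showed the largest change of the members. Its CPM was 0.447, 0.371, 0.988 and 0.661 in the naive mice, 1.32, 1.94, 1.57 and 1.72 in the STAM vehicle mice and 18.4, 25.6, 6.96 and 19.5 in the STAM I-BET151 mice. The 3 groups did not overlap, and the lowest treated value was that of mouse 3. The fold change of I-BET151 against STAM vehicle was 10.7 (log2 3.42 ± 0.36 SE, edgeR adjusted p = 0.0041, n = 4 per group). Without mouse 3 it was 3.69 on the log2 scale (edgeR adjusted p = 1.54e-05). The gene stayed called when any 1 of the 12 mice was left out.

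Hist1h4k (chr13:21750194-21750505, minus strand, 1 exon) had 10, 16, 18 and 5 counts in the STAM vehicle mice and 69, 31, 95 and 37 in the I-BET151 mice, after 8, 5, 3 and 6 in the naive mice. Its log2 fold change after I-BET151 was 2.23 ± 0.36 (SE, edgeR adjusted p = 0.036). Hist1h4m (chr13:21811746-21812147, plus strand, 1 exon) had 3, 1, 4 and 3 counts in naive, 11, 13, 11 and 5 in STAM vehicle and 44, 30, 53 and 32 in I-BET151 mice, a log2 fold change of 2.01 ± 0.34 (SE, edgeR adjusted p = 0.037). Every treated mouse lay above every STAM vehicle mouse for both genes, and mouse 3 was the highest treated mouse for both, the reverse of its place for Hist1h4h. Their calls were less stable: without STAM_treated mouse 1 or without STAM_vehicle mouse 4 both were lost, at adjusted p of 0.133 and 0.133 for Hist1h4k and Hist1h4m in the first case and 0.110 and 0.132 in the second, and Hist1h4m was also lost without STAM_vehicle mouse 2 (0.105).

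**Figure D3:**
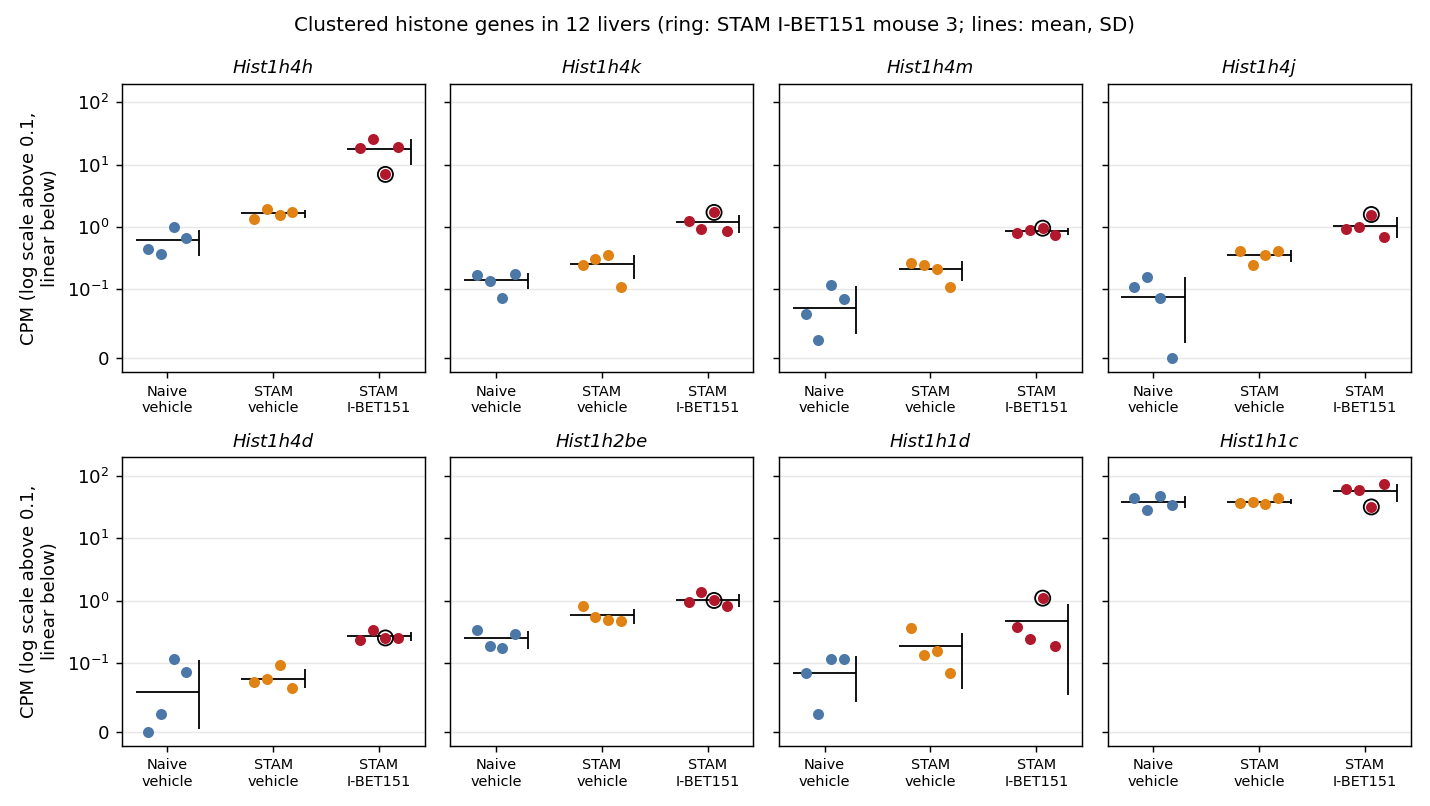
CPM of 8 members in each of the 12 mice (log scale above 0.1, linear below) with the mean and SD of 4 mice per group, the ring marking STAM I-BET151 mouse 3. For Hist1h4h, Hist1h4k, Hist1h4m, Hist1h4j and Hist1h4d all I-BET151 points lie above all STAM vehicle points, whereas for Hist1h1c mouse 3 lies below the STAM vehicle points.

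The other H4 genes differed among themselves. Hist1h4j had 17, 13, 18 and 19 counts in STAM vehicle and 51, 33, 88 and 30 in I-BET151 mice (log2 1.57 ± 0.42 SE, edgeR adjusted p = 0.210), and DESeq2 called it (adjusted p = 0.0078). Hist1h4d had 0, 1, 4 and 3 counts in naive, 3, 4, 5 and 3 in STAM vehicle and 13, 11, 14 and 11 in I-BET151 mice (log2 1.74 ± 0.51 SE, edgeR adjusted p = 0.288), without a call by either tool. These 2 genes and the 3 called were the only tested members whose 4 treated mice all lay above the 4 STAM vehicle mice, 5 of 7 tested H4 genes and 0 of 15 tested genes of the other classes. Among all genes tested, 2.41% showed that pattern. Hist1h4d, Hist1h4k and Hist1h4m passed the filter on low counts only with the treated mice. Their place among the genes tested is therefore not independent of this pattern. Hist1h4i, with 40, 42, 51 and 27 counts in STAM vehicle and 87, 30, 105 and 23 in I-BET151 mice, and Hist2h4, with 38, 23, 17 and 19 against 15, 5, 52 and 3, overlapped between the groups, and neither was called. Hist2h4 rested on mouse 3, its log2 fold change being -0.48 with that mouse and -1.58 without it (edgeR adjusted p = 0.887 and 0.127).

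Among the members too sparse for the test, counts were also higher in treated mice. Of 35 such members with at least 1 count, 9 had all 4 I-BET151 mice above all 4 STAM vehicle mice in CPM, and none had all below. Over all genes counted but not tested the share above was 0.729% and the share below 0.878%, so that no member below is near the background. The 9 comprised 3 H4 genes (Hist1h4a, Hist1h4c and Hist1h4n), 2 H3 genes (Hist1h3c and Hist1h3g), 2 H1 genes (Hist1h1a and the testis-specific Hist1h1t) and 2 H2A entries (Hist1h2ao and Hist1h2al). Hist1h4a had 1 count in each naive mouse, 0, 2, 1 and 0 counts in STAM vehicle and 16, 14, 6 and 19 in I-BET151 mice. Hist1h4c had 4, 1, 2 and 3 counts in naive, 2, 3, 4 and 2 in STAM vehicle and 15, 11, 20 and 8 in I-BET151 mice. DESeq2, which filters otherwise, called these 2 (adjusted p = 0.0066 and 0.033), so that its 6 called members were all H4 genes of the Hist1 cluster. DESeq2 called 0.525% of its tested genes higher. Hist1h2al had 5, 2, 4 and 2 counts in STAM vehicle and 11, 20, 8 and 17 in I-BET151 mice, against 3, 3, 8 and 1 in naive mice. Hist1h2ao and Hist1h1t had at most 4 counts in any mouse, and at these counts the differences of single genes carry large counting errors.

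Hist1h4h, Hist1h4a, Hist1h4k, Hist1h4m and Hist1h2al were also named by the study from these same animals, so their direction here is no independent evidence.

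Summed over the class, H4 went from 2.03 ± 0.34 CPM in naive to 4.03 ± 0.35 in STAM vehicle and 23.4 ± 6.5 in STAM I-BET151 livers (SD, n = 4), and from 1.40% to 3.22% and 12% of the signal of all members. The 4 treated mice had 24.3, 30.8, 14.9 and 23.7 CPM, the 4 STAM vehicle mice 4.33, 4.19, 4.08 and 3.52. Hist1h4h made up 30.4% of the H4 sum in naive, 40.6% in STAM vehicle and 75.3% in I-BET151 livers. Without it the remaining 12 H4 genes summed to 1.41 ± 0.27, 2.39 ± 0.50 and 5.78 ± 1.62 CPM in the same order, the groups again without overlap. Without mouse 3 the mean H4 sum of the treated mice was 26.2 CPM. The H2A sum, from far fewer reads, was 1.32 ± 0.25 CPM in naive, 1.5 ± 0.42 in STAM vehicle and 2.28 ± 0.24 in I-BET151 livers. Its treated mice (2.04 to 2.56 CPM) lay above the STAM vehicle mice (0.987 to 1.87 CPM), although neither of the 2 H2A genes tested was called. The H1 sum was 39.1 ± 8.6, 39.5 ± 3.5 and 58.0 ± 17.2 CPM, the H2B sum 100.4 ± 7.7, 77.5 ± 6.3 and 107.5 ± 41.7 CPM and the H3 sum 1.88 ± 0.46, 2.43 ± 0.30 and 3.62 ± 1.31 CPM. Without mouse 3 the mean sums of the treated mice were 65.9 CPM for H1, 124.6 for H2B, 3.73 for H3 and 2.24 for H2A. For H1 and H2B mouse 3 was the only treated mouse not above all STAM vehicle mice. These sums carry no test.

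**Figure D4:**
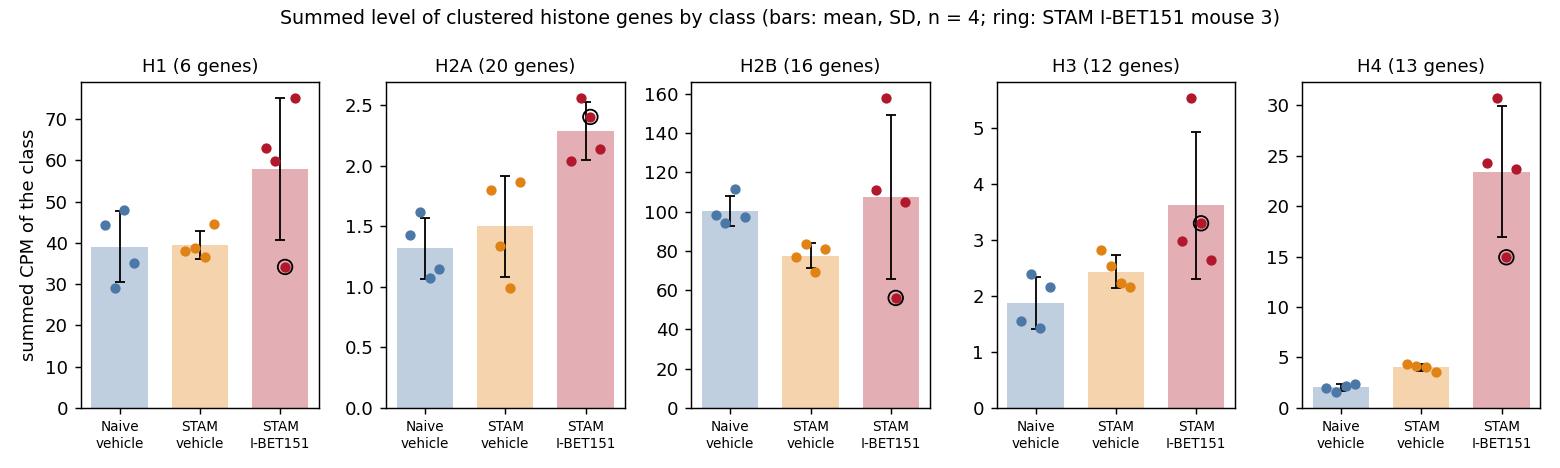
Summed CPM of each class (bars, mean with SD of 4 mice per group; points, single mice; ring, STAM I-BET151 mouse 3), each panel on its own scale from 0. The H4 sum of the I-BET151 mice lies between 14.9 and 30.8 CPM, above all other mice, as do those of the H2A panel (2.04 to 2.56 CPM). The H1, H2B and H3 sums of the treated mice overlap those of the STAM vehicle mice, for H1 and H2B through mouse 3 alone.

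The H1 and H2B genes, which had the highest levels, were not called in this comparison. None of the 2 H1, 2 H2A, 10 H2B and 1 H3 genes tested was called by edgeR or DESeq2. Of these 15, 5 had an unadjusted edgeR p under 0.05, against 1460 of all 16823 genes tested. Hist1h1c held most of the signal of the clustered H1 genes in these libraries. This gene had 44.1, 29.0, 47.6 and 34.9 CPM in naive, 37.5, 38.3, 36.2 and 44.2 in STAM vehicle and 62.0, 59.0, 32 and 74.5 in I-BET151 mice. Mouse 3 was below the STAM vehicle range and the other 3 above it. Its log2 fold change was 0.54 ± 0.22 (SE, edgeR adjusted p = 0.498) and, without mouse 3, 0.75 (edgeR adjusted p = 0.039). Hist1h2bc had 82.6, 81.9, 97.0 and 83.5 CPM in naive, 62.6, 71.7, 58.5 and 69.0 in STAM vehicle and 95.4, 131, 44.1 and 89.8 in I-BET151 mice, with the same order. Its log2 fold change was 0.46 ± 0.24 (SE, edgeR adjusted p = 0.623), and 0.70 without mouse 3 (edgeR adjusted p = 0.030). Hist1h2bg moved likewise, from 0.64 (adjusted p = 0.484) to 0.85 (adjusted p = 0.064) on the log2 scale. Without mouse 3 these 3 genes and Hist1h4a joined the called members, which were then 7. In that fit 155 of 16967 genes tested were called higher, and Hist1h4a passed the filter on low counts only with its treated mice. Calls in the H1 and H2B classes thus turned on 1 library. Hist1h1d, the other H1 gene tested, had 15, 7, 8 and 4 counts in STAM vehicle and 21, 8, 61 and 8 in I-BET151 mice (log2 1.42 ± 0.59 SE, edgeR adjusted p = 0.508), and its log2 fold change was 0.61 without mouse 3.

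The other H2B genes tested were low and overlapped between the groups. Their log2 fold changes were 1.06 for Hist1h2bj, 0.96 for Hist1h2br, 0.91 for Hist1h2bp, 0.82 for Hist1h2be, 0.70 for Hist1h2bn, 0.56 for Hist1h2bf and 0.47 for Hist1h2bb, with edgeR adjusted p from 0.409 to 0.843. Hist2h2be, an H2B gene of the Hist2 cluster without the stem-loop in the stretch searched, had the lowest value of the class (log2 -0.51 ± 0.26 SE, edgeR adjusted p = 0.620), with 117, 114, 115 and 118 counts in STAM vehicle and 82, 51, 137 and 58 in I-BET151 mice. The only H3 gene tested, Hist2h3c2, had 107, 122, 106 and 87 counts in STAM vehicle and 125, 148, 162 and 84 in I-BET151 mice (log2 0.39 ± 0.27 SE, edgeR adjusted p = 0.753). In the H2A class Hist3h2a had 61, 51, 42 and 68 counts in STAM vehicle and 71, 22, 90 and 45 in I-BET151 mice, with overlapping groups (log2 -0.02 ± 0.34 SE, edgeR adjusted p = 0.996). Hist2h2ac had 3, 5, 1 and 12 against 8, 22, 15 and 13 counts (log2 1.57 ± 0.63 SE, edgeR adjusted p = 0.489).

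Sequencing lanes held unequal groups. In each of the 3 lanes with a mouse of both STAM groups (lanes 2, 6 and 7) the treated mouse was higher for Hist1h4h, by 3.5, 3.80 and 2.15 on the log2 scale, for Hist1h4k, by 3, 2.37 and 2.29, and for Hist1h4m, by 2.79, 1.58 and 2.16. With lane as a covariate, which left few degrees of freedom, no gene was called by edgeR, and 5 members had an unadjusted p under 0.05. The log2 fold change of Hist1h4h was then 3.15 (edgeR adjusted p = 0.107).

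The second question was whether the disease model itself moved these genes. In STAM vehicle livers 3 members were higher than in naive livers and none was lower: the H4 genes Hist1h4j and Hist1h4h and the H2B gene Hist1h2be. Of all genes tested, 5.72% were called higher here, so 3 of 22 members is a share to be read against a large background. Called lower were 232 of the 16823 genes tested, so that no member lower is near the background. DESeq2 called the same 3 members, with 7.36% of its genes called higher. Hist1h4j had 5, 6, 3 and 0 counts in naive and 17, 13, 18 and 19 in STAM vehicle mice (log2 1.93 ± 0.53 SE, edgeR adjusted p = 0.043). Hist1h4h had 21, 14, 34 and 23 against 55, 102, 81 and 81 counts (log2 1.43 ± 0.39 SE, edgeR adjusted p = 0.042). Hist1h2be (chr13:23583670-23621124, minus strand, 2 exons), which shares exon bases with the H1 gene Hist1h1e, had 16, 7, 6 and 10 against 34, 29, 25 and 22 counts (log2 1.20 ± 0.33 SE, edgeR adjusted p = 0.041).

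Each of these calls was near the threshold, and each held in 3 of the 12 fits with 1 mouse left out. Hist1h4m missed it (log2 1.49 ± 0.44 SE, edgeR adjusted p = 0.055). All 4 STAM vehicle mice lay above all 4 naive mice for the 3 called genes and for Hist2h4, 4 of 22 members tested against 14.2% of all genes. Hist1h2bc was the only member with all 4 STAM vehicle mice below all naive mice (81.9 to 97.0 CPM against 58.5 to 71.7), a pattern that 12.2% of all genes tested showed, and it was not called (log2 -0.40 ± 0.24 SE, edgeR adjusted p = 0.351). Without STAM_treated mouse 3 it was called (edgeR adjusted p = 0.026), with 1751 of the 16967 genes of that fit called lower. That mouse is in neither group but sets part of the spread. The 7 tested H4 genes had log2 fold changes of 0.31 to 1.93 and a median of 1.35, against 0.01 over all genes, and the 10 H2B genes a median of -0.22.

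**Figure D5:**
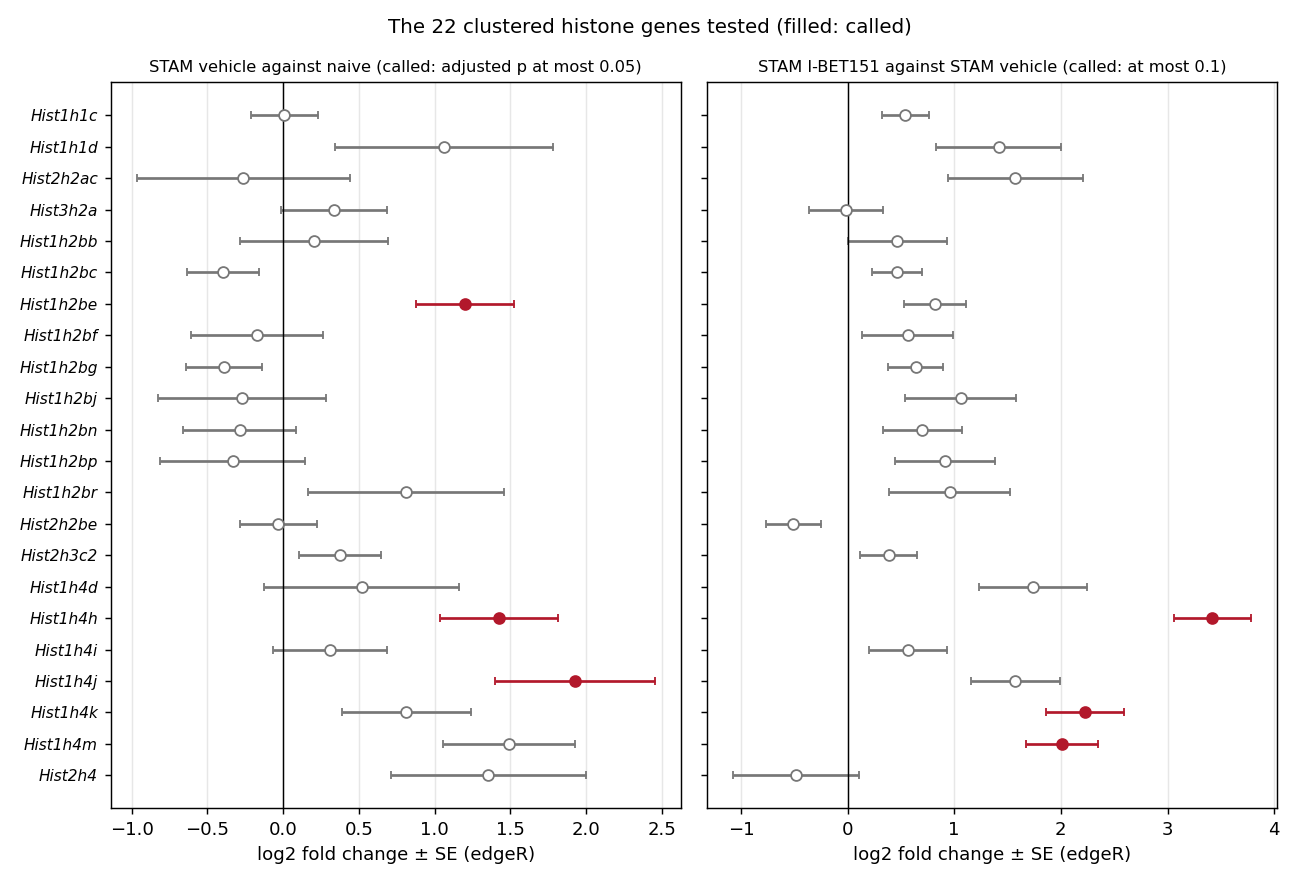
Log2 fold change with SE (edgeR) of the 22 members tested, ordered by class, for STAM vehicle against naive (left) and STAM I-BET151 against STAM vehicle (right), with filled symbols for members called. All called members are H4 genes except Hist1h2be on the left, and Hist1h4h has the largest value on the right, at 3.42.

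Treated STAM livers were also set against naive livers, a comparison the study did not make and which shares its mice with the others. Here 7 members were higher and none lower. Of the 16823 genes tested 9.88% were called higher and 884 genes were called lower. They were the H4 genes Hist1h4h (log2 4.85 ± 0.40 SE, edgeR adjusted p = 2.12e-05), Hist1h4m (3.5 ± 0.40), Hist1h4j (3.5 ± 0.50), Hist1h4k (3.04 ± 0.40) and Hist1h4d (2.25 ± 0.56), the H2B gene Hist1h2be (2.02 ± 0.32) and the H1 gene Hist1h1d (2.48 ± 0.67, adjusted p = 0.025). For these 7 all treated mice lay above all naive mice, as for 10.9% of all genes tested. Of the 7, Hist1h1d, Hist1h4d, Hist1h4k and Hist1h4m passed the filter on low counts only with the treated mice. No tested member had all treated mice below, against 8.85% of all genes tested. Hist1h1d depended on mouse 3, which had 61 counts against 21, 8 and 8 in the other treated mice and 1 to 4 in naive mice. Without it the adjusted p was 0.053. DESeq2 called 11 members, adding Hist1h2br, Hist1h4c, Hist1h4a and Hist1h1a, with 10.9% of its genes called higher. Hist1h2br had 13, 1, 4 and 3 counts in naive, 11, 5, 22 and 7 in STAM vehicle and 26, 11, 44 and 9 in I-BET151 mice, and Hist1h1a 1, 0, 0 and 1, then 0, 2, 3 and 0, then 9, 9, 4 and 9. Of the untested members with a count, 7 of 35 had all treated mice above all naive mice, against 2.67% of such genes.

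Other genes that code for, carry or process histones were read from 3 lists, and no tested gene of these lists was called after I-BET151. Among 10 replication-independent histone genes tested of 11, most of which give polyadenylated mRNA through the cell cycle, edgeR and DESeq2 called none. Of these genes 1 had an unadjusted edgeR p under 0.05. The most abundant, the H3.3 gene H3f3b, differed by -0.15 ± 0.14 on the log2 scale (edgeR adjusted p = 0.839). None of 17 genes of histone gene transcription and mRNA 3′ processing was called by either tool (1 with an unadjusted edgeR p under 0.05). Npat, the coactivator of histone genes in S phase, differed by 0.19 ± 0.20 and Slbp by -0.11 ± 0.11 on the log2 scale. None of 12 histone chaperones was called by either tool (1 with an unadjusted edgeR p under 0.05). In treated STAM against naive livers edgeR called the variant histone genes H2afy2 (log2 1.02) and H2afj (0.53) and the chromatin assembly gene Chaf1a (0.89) higher, and Slbp (log2 -0.45 ± 0.11 SE, edgeR adjusted p = 0.017) and the chaperone gene Nap1l4 (-0.29) lower.

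Of 16 genes of S phase and mitosis tested, edgeR called none after I-BET151. Of these genes 5 had an unadjusted edgeR p under 0.05 (1460 of all 16823 genes tested), and their median log2 fold change was -0.24. DESeq2 called 4, of which Top2a, Cdk1 and Rrm2 were lower in treated mice and the replication helicase gene Mcm7 was higher (edgeR log2 0.49). Mki67, a marker of dividing cells, differed by -0.93 ± 0.39 (SE, edgeR adjusted p = 0.520) and the topoisomerase gene Top2a by -1.13 ± 0.32 (adjusted p = 0.249). The summed level of the 16 genes was 72.5 to 95.8 CPM in treated and 80.2 to 100.4 CPM in STAM vehicle mice. The highest treated value was that of mouse 3, and the other 3 treated mice, at 72.5 to 75.1 CPM, lay below all STAM vehicle mice. In STAM vehicle against naive livers 12 of the 16 genes were above 0 on the log2 scale and their median was 0.28. There edgeR called none of them, 8 had an unadjusted edgeR p under 0.05, and DESeq2 called 2, Mcm2 and Ccna2.

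Hexim1 codes for an inhibitor of the elongation factor P-TEFb, and its RNA is often followed as a readout of BET inhibition. Hexim1 was lower in STAM vehicle than in naive livers (log2 -0.45 ± 0.12 SE, edgeR adjusted p = 0.039) and differed by -0.31 ± 0.12 between treated and STAM vehicle livers (edgeR adjusted p = 0.468), without a call by edgeR or DESeq2. The 4 treated mice were also called lower than the naive mice for it (log2 -0.76, edgeR adjusted p = 0.0018).

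Because clustered histone RNA mostly lacks a poly(A) tail, other RNAs without one were read in the same libraries. None of 4 tested of 11 was called after I-BET151 by edgeR or DESeq2, and 1 had an unadjusted edgeR p under 0.05. In treated STAM against naive livers all 4 were above 0, with a median log2 fold change of 0.74. There edgeR called none, 2 had an unadjusted edgeR p under 0.05, and DESeq2 called Rn7sk. The summed level of the 11 RNAs was 5.40, 2.38, 4.61 and 2.21 CPM in the I-BET151 mice and 3.29, 3.68, 1.24 and 3.31 CPM in the STAM vehicle mice, so that treated mice 1 and 3 were high and treated mice 2 and 4 were not. The small nuclear RNA Rn7sk had 84, 18, 94 and 21 counts in the treated mice. Hist1h4h did not follow this order, being highest in mouse 2, as was Hist1h4d. Hist1h4k, Hist1h4i, Hist2h4 and Hist1h1d had their 2 highest treated CPM values in mice 1 and 3. For Hist1h4m and Hist1h4j these were in mice 2 and 3. The part of poly(A) selection in the differences between mice was not tested.

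Marker genes of other cells were read for the same groups. After I-BET151, 1 of 6 T cell markers was called lower (Cd4, log2 -1.77 ± 0.32 SE, edgeR adjusted p = 0.052), with a summed level of 2.02 to 3.19 CPM in treated against 5.37 to 7.30 CPM in STAM vehicle mice, and DESeq2 called 3. No marker of hepatocytes, B cells, macrophages, neutrophils, stellate, endothelial or bile duct cells was called by either tool in that comparison, of which 2 in all had an unadjusted edgeR p under 0.05. In STAM vehicle against naive livers 3 of 5 macrophage markers, 1 of 4 stellate and 1 of 6 T cell markers were called higher. The macrophage markers summed to 153.3 to 221.1 CPM in naive and 240.9 to 419.4 CPM in STAM vehicle mice, and the hepatocyte markers to 110926 to 130494 CPM and 59132 to 76224 CPM. Their part in the differences of the histone genes was not tested.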

How the data were processed

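Poly(A)-selected liver RNA of 12 mice was sequenced in stranded paired-end libraries. The authors aligned the reads with STAR 2.5.1b to mm10, kept uniquely mapped reads and deposited, for every mouse, raw counts by gene that are whole numbers and not normalized. Their processing notes and methods name HTSeq for counting, whereas the deposited tables are titled after featureCounts. The annotation release and the strand setting are not given in the sources used here. Rows without a GENCODE M21 symbol held 0.034% to 0.13% of each library and stayed in library sizes and tests. The study left out a treated sample that it does not name, and all 12 mice were used here.

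Gene names, classes and positions were taken from GENCODE M21 by Ensembl identifier. The main test was that of edgeR 4.0.16 in R 4.3.3 (TMM, filterByExpr with a minimum count of 10, glmQLFit and glmQLFTest, all groups in 1 fit, Benjamini-Hochberg adjustment over all genes tested), and with DESeq2 1.42.0 as an alternative. The SE of an edgeR log2 fold change was obtained by dividing the change by the root of its F statistic. Tables and plots were made in Python 3.11.15 with pandas 2.3.3, numpy 2.4.6 and matplotlib 3.10.9. The scripts were tested on simulated data with 200 changed genes. The members, the gene lists and the tests were chosen with earlier results of these data known. By rule, members were named when tested, when called by edgeR or DESeq2, when named by the study, or when highest of a class by CPM per kb, and genes of other lists when called in a comparison or most abundant of their list. Other named genes were chosen after their values were seen. Class and cluster sums of CPM are descriptions without a test. The alternatives tried were another normalization, DESeq2, other filters, only the groups compared, a replicate block, lane as a covariate and leaving out each mouse. Replicate numbers did not pair the mice. Mice of a group differed beyond sampling noise (lowest chi-square per degree of freedom 30.5), so that no library was counted as a copy of another. Some results of other gene lists are not reported here.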

Additional observations from a re-analysis of the deposited data

Results flagged for a closer look

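Hist1h2bc had 97.0 CPM in Naive_vehicle mouse 3, against 81.9 to 83.5 CPM in the other 3 naive mice, a gap that passed Dixon's test for a sample far from the others. It was the only such value among 54 groups of 4 mice, of which chance alone marks about 5%.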

How the results depend on the processing

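The called members kept their direction under every alternative run. Values that were not called did not all do so: after I-BET151, with 1 mouse left out, the log2 fold change reached -0.09 for Hist1h2bf and -0.04 for Hist1h2bb and ranged from -0.21 to 0.16 for Hist3h2a, which had 0.06 with lane as a covariate. Hist1h2bc in STAM vehicle against naive had 0.06 with lane. In both comparisons with naive mice other members that were not called also changed sign with lane or with 1 mouse left out. After I-BET151 the 3 called members became 6 with DESeq2, 5 without a filter on low counts, 1 with a mean count of at least 50, 1 with only the 2 groups compared and 0 with lane as a covariate (5 members with an unadjusted edgeR p under 0.05). They ranged from 1 to 7 when 1 mouse was left out, with 7 without STAM_treated mouse 3 and 1 without STAM_treated mouse 1 or STAM_vehicle mouse 4. For STAM vehicle against naive the 3 called became 1 with a mean count of at least 50, 5 with only the 2 groups and 0 with lane (2 members with an unadjusted edgeR p under 0.05). They ranged from 0 to 6 with 1 mouse left out. The 6 were without STAM_treated mouse 3, where 3779 of the 16967 genes tested were called. For treated STAM against naive the 7 became 11 with DESeq2, 12 without a filter, 1 with lane and 1 with a mean count of at least 50. The median log2 fold change of the members tested after I-BET151 (0.76) was 0.51 with lane, 0.51 with a mean count of at least 50 and 1.04 without a filter, and for STAM vehicle against naive (0.32) it was 0.023 with a mean count of at least 50. Stricter filters leave 6 members. By the raw total count the H2A sum of treated mice was 2.60 CPM and the H2B sum of naive mice 86.6 CPM. Otherwise the cause of these changes was not tested.

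Same-numbered mice did not deviate together (correlations of -0.228 to 0.0933 for treated and STAM vehicle mice), so a replicate block has no basis in the design. With it 1 member was called after I-BET151 and 0 for STAM vehicle against naive (4 members with an unadjusted edgeR p under 0.05). Over all genes after I-BET151, edgeR called 59, DESeq2 268, the fit without a filter 101, the fit with only 2 groups 8, the block 10 and lane 0 (1485 with an unadjusted p under 0.05), and without STAM_treated mouse 3 it was 403. For STAM vehicle against naive edgeR called 1195 of all genes, DESeq2 1892, only 2 groups 3879, the block 742 and lane 37, and for treated STAM against naive 2546, with 1262 from only 2 groups, 1573 with the block and 85 with lane. Untested members, with few reads each, allow no statement on single genes.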

Other observations

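The protein-coding genes other than histone genes within 50 kb of a member, a set chosen after the data were seen, were read in the same fit. Of 30 such genes 18 were tested. After I-BET151 edgeR and DESeq2 called none of them, and their median log2 fold change was -0.02. Of these genes 4 had an unadjusted edgeR p under 0.05, against 1460 of all 16823 genes tested.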
